A study of Mus musculus with 6 samples.

Results

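The genes of DNA replication and nucleotide supply described here are 45 of the 21761 mouse genes in the deposited expression table. They were chosen by name and cover helicase, origin, polymerase, clamp, single-strand binding, ligation, chromatin assembly and nucleotide enzymes, with 3 regulators of entry into S phase. All 45 were found in the table and all passed the filter on low values. The group was drawn up with the opposite course of Pcna and most of the other members already known.

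The libraries came from bone marrow of male C57BL/6J mice with no altered gene or other treatment named in the labels. Marrow cells were taken fresh (day 0, libraries II and III) or after 4 days (libraries I and II) or 7 days (libraries III and IV) in medium with a supernatant that held Flt3 ligand (Flt3L), made by a transfected SP2/0 line. Flt3L is the cytokine that drives dendritic cells to form from marrow progenitors. The submitters titled day 4 common myeloid progenitors (CMP) and called day 7 dendritic cells derived from bone marrow (BMDC), and their description states that every live cell was used, so these are bulk cultures of mixed cells. In bulk samples, fewer cells of a type and less RNA per cell cannot be told apart. No label states that the libraries of a day are separate mice or cultures, so each p-value reflects the spread of these samples alone, and that spread may be technical.

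DNA replication starts in G1 phase, when the origin recognition complex (ORC), CDC6 and CDT1 load rings of the MCM2-7 helicase onto DNA. At the start of S phase CDC45 and the GINS complex join the ring and turn it into an active helicase. Primase and DNA polymerase alpha then lay down primers, replication factor C (RFC) loads the sliding clamp PCNA, and polymerases delta and epsilon copy the strands. Replication protein A (RPA) covers the exposed single strands, FEN1 and LIG1 join the fragments of the lagging strand, and the chromatin assembly factor CAF-1 places histones behind the fork. Thymidylate synthase and ribonucleotide reductase make the deoxynucleotides. Many of these genes are known targets of E2F transcription factors, which cyclin E and its kinase help to release from RB proteins, and marrow is known for its dividing progenitors.

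Promoter sequences are shown because E2F control is the best known feature that these genes share, and no sequence was used to choose them. RefSeq promoters of mouse GRCm38.p6 were matched for 36 of the 45 members, and the 250 bases before the start were searched on both strands for TTTCCCGC, TTTGGCGC, TTTCGCGC and TTTGCCGC (forms of the E2F site) and for CCAAT. The E2F letters stood in 8 members (22.2%), namely Mcm5, Mcm6, Mcm7, Orc1, Cdc6, Gins3, Pola1 and Rfc3, against 469 of 16524 genes of the table with a promoter (2.84%). CCAAT stood in 22 members (61.1%), against 6532 of those genes (39.5%). Below, capitals mark both kinds of match, and CCAAT on the other strand reads ATTGG. Mcm6 (chr1:128359706-128359955, minus strand) held 3 E2F matches, of which 2 overlap. Mcm5 (chr8:75109259-75109508, plus strand) held 2 overlapping ones. Orc1 (chr4:108579204-108579453, plus strand) held 1, and 19 bases lie between it and the start. Pcna (chr2:132253181-132253430, minus strand), also shown, held 1 CCAAT on the other strand and none of the 4 E2F forms. That lack was shared by most members, since 28 of the 36 held none of the forms, Tyms, Rrm1, Rrm2 and Mcm2 among them.
Mcm6: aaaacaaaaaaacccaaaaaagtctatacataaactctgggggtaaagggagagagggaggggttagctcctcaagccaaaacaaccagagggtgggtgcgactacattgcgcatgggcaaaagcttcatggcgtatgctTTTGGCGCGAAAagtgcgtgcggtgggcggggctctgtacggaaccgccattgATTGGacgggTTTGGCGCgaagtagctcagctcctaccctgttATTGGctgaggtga
Mcm5: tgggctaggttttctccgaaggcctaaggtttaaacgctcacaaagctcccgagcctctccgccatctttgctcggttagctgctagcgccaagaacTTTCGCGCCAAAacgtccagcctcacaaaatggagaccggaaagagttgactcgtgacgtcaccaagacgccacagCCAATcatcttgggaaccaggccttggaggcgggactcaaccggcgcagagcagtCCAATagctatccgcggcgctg
Orc1: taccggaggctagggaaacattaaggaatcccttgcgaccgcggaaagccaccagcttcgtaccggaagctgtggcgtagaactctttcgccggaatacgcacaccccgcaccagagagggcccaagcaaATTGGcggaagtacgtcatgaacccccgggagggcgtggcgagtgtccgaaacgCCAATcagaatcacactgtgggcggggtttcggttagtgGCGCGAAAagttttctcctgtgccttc
Pcna: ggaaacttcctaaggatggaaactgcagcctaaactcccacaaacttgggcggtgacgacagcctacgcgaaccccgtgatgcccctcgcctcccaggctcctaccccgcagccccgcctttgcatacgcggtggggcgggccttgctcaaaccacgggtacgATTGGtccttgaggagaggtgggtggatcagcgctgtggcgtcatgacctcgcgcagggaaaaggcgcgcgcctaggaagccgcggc
A match is a description of letters and not of binding.

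Values are RPKM, reads scaled by the exon length of the gene and by the library's total reads in genes, so levels can be set side by side between genes. Library totals read back from the table were 157797 to 322837 reads at day 0, then 1365635 to 3852628 at day 4 and 10951745 to 16149088 at day 7. The members held 748 to 1511 reads at day 0, then 1895 to 7445 at day 4 and 15253 to 24617 at day 7, and in the median member 10 to 15, 32 to 91 and 124 to 219. Intervals below are exact at 95% and cover counting error only, since PCR copies are not independent molecules. As a background level, the pooled RPKM of 1449 olfactory, vomeronasal and trace amine receptor genes was 8.29 to 8.71 at day 0, then 0.846 to 4.33 at day 4 and 0.0218 to 0.0236 at day 7. The lower Poisson bound of a member's level lay above the receptor level of its library for 18 to 22 of 45 members at day 0, then 28 to 43 at day 4 and 43 to 45 at day 7. All 6 Mcm genes, Orc1, Cdc6, Pcna, Tyms, Rrm1, Rrm2, Rpa1, Fen1 and Ccne1 were above it in both day 0 libraries.

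Cell type markers were summed in each library beside these genes. The 14 erythroid markers found of 16 listed summed to 40394 to 81028 RPKM at day 0, then 3937 to 4253 at day 4 and 48.1 to 65.1 at day 7, where Slc4a1, Alas2 and Rhag were among the markers at 0 in both libraries. All 13 neutrophil and granulocyte precursor markers had reads at days 0 and 4. They summed to 8689 and 67491 RPKM at day 0, then 36557 to 49477 at day 4 and 172 to 180 at day 7, where Mpo, Prtn3 and Ctsg were at 0 in both libraries. Beside the CMP title, the 12 CMP and stem cell markers summed to 2060 and 495 RPKM at day 0 and 765 and 999 at day 4. Most of each sum was Mpo, at 1860 and 339 RPKM at day 0 and 447 and 641 at day 4. Mpo is also 1 of the 13 neutrophil and granulocyte precursor markers. At day 4 against day 0, 0 of the 12 were called, with 8 log2 fold changes below 0 and 4 above. Kit, a progenitor receptor, was at 8.34 and 18.1 RPKM at day 4 and 10.6 and 21.0 at day 0. Spi1 of the same list was at 218 and 285 RPKM at day 4 and 92.9 and 47.5 at day 0. Beside the BMDC title, the 12 macrophage markers summed to 132 to 140 RPKM at day 0, then 144 to 237 at day 4 and 12214 to 12996 at day 7. The 14 conventional dendritic cell markers summed to 834 to 1025 RPKM at day 0 and 289 to 552 at day 4. At day 7 they summed to 2833 to 3017 RPKM, and Cd74 led them. Zbtb46, a transcription factor of these cells, was at 0.0288 and 0.0283 RPKM at day 7. At day 7 against day 0, 5 of the 14 (35.7%) were called higher and 4 (28.6%) lower, beside 11.3% and 29.3% of all genes tested. The 11 plasmacytoid dendritic cell markers summed to 45.9 to 54.0 RPKM at day 0 and 87.2 to 148 at day 4. At day 7 they summed to 699 to 811 RPKM, of which Bst2 alone held 613 and 714. At day 7 against day 0, 5 log2 fold changes of this list lay below 0 and 6 above. Of these 11, 3 (27.3%) were called higher and 1 (9.09%) lower at day 7 against day 0, beside the same shares of all genes. The part of these cell types in the results below was not tested.

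The members gave more falls than rises in each comparison, and Pcna was the 1 member that rose at day 7 against day 4. By day 7, 22 of 45 members (48.9%) had fallen against day 0 and 3 (6.67%) had risen, where limma called 29.3% of all 19279 genes tested lower and 11.3% higher. The median log2 fold change was -1.61 over the members and -1.14 over all genes tested. Once the receptor level was subtracted from each library, only 44 members and 10815 genes passed the filter. Their medians were 0.077 over members and 1.68 over all genes. In that setting 8 members were called lower and 7 higher, beside 486 lower and 4738 higher of the 10815 genes. Limma-voom on whole reads called 16 members lower and 3 higher at day 7 against day 0. Beside these were 9303 lower and 2374 higher of all 19279 genes, so the members held the smaller share of falls. The voom medians were -1.01 over members and -2.05 over all genes. With a pseudocount of 0.1 RPKM they were -1.73 and -1.97. At day 4 against day 0, 4 members (8.89%) had fallen and 0 had risen, against 1.92% of all genes lower and 3.66% higher. At unadjusted p under 0.05, limma put 20 members lower and 0 higher there, beside 2735 lower and 2161 higher of all 19279 genes tested. For the same days limma-voom on whole reads called 1 member lower and 0 higher, beside 44 lower and 120 higher of all genes. Between these, at day 7 against day 4, 6 members (13.3%) had fallen and 1 (2.22%) had risen, against 6.75% of all genes lower and 5.85% higher. The median was -1.09 over members and -0.40 over all genes at day 4 against day 0, and -0.85 and -0.81 at day 7 against day 4. The 3 comparisons share libraries, and with day 4 library I or II left out limma called 0 genes of the whole table in either comparison with day 4, at 6499 and 3437 unadjusted against day 0 and 4062 and 7160 for day 7 against day 4. Without day 7 library III or IV, 10 and 9 of the 22 lower calls and 0 of the 3 higher calls at day 7 against day 0 were kept. 19 members were called in no comparison.

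**Figure D1:**
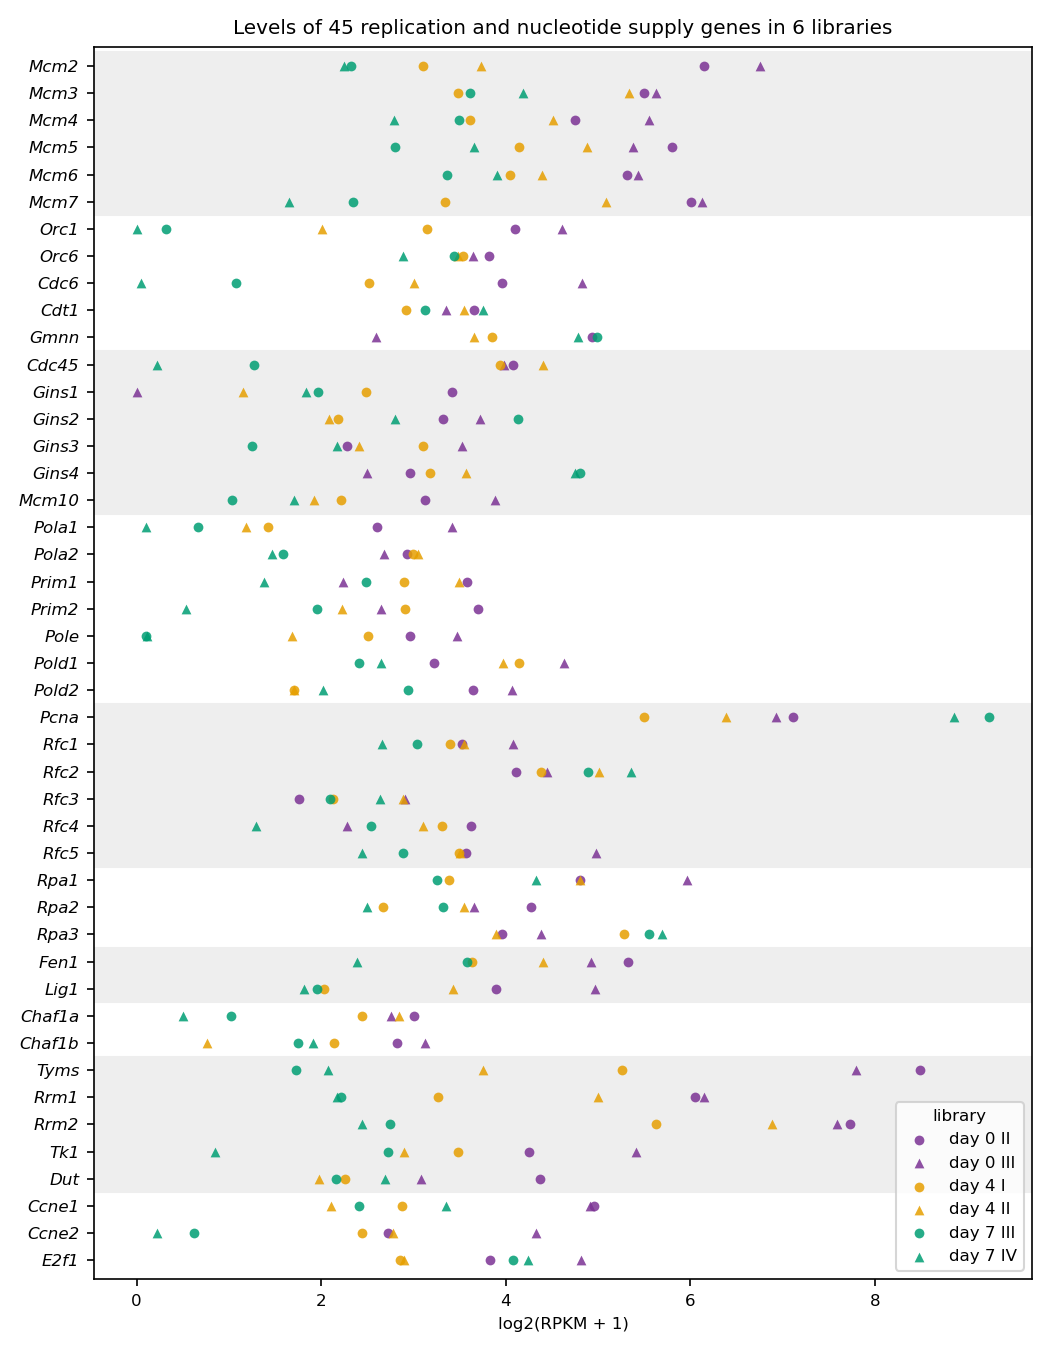
Level of each member as log2(RPKM + 1) on the horizontal axis, 1 point per library with colour for the day and shape for the library, and bands for the roles. Pcna is the rightmost point at day 7, while most day 7 points of the other members lie left of the day 0 points.

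**Figure D2:**
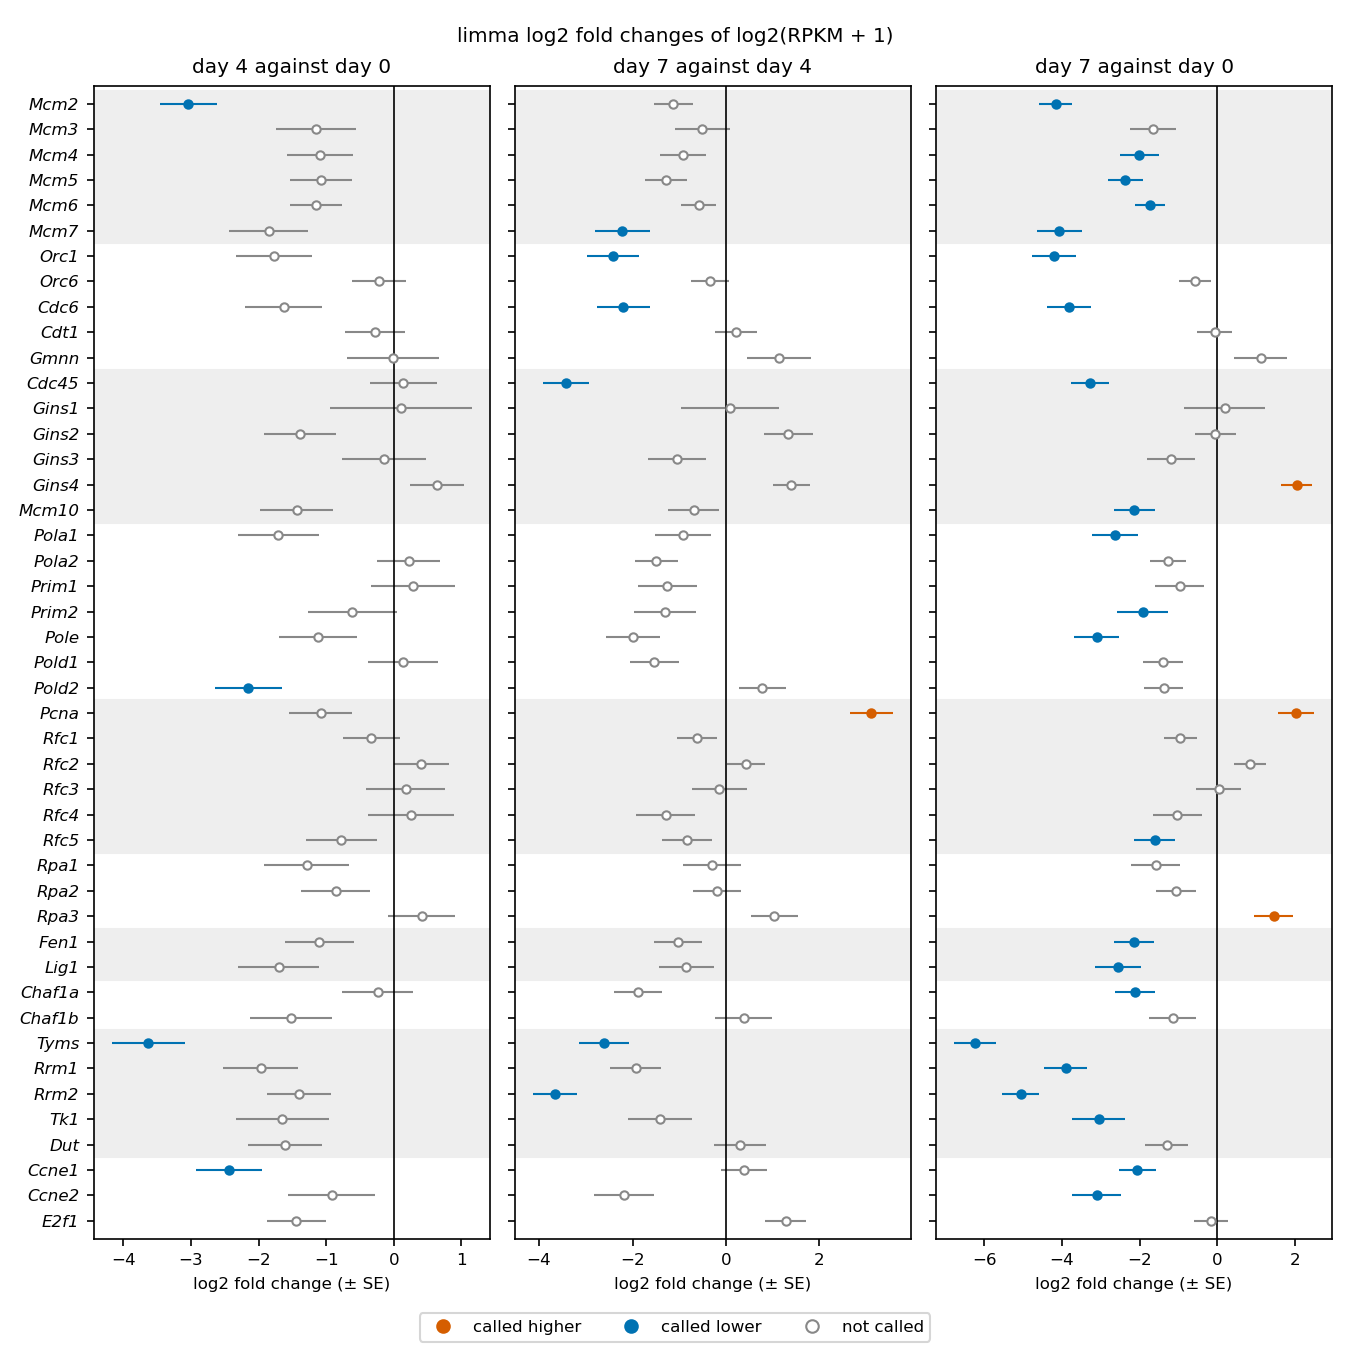
Log2 fold change of log2(RPKM + 1) with its limma standard error for each member, with a panel per comparison and filled points for calls at adjusted p under 0.05. Filled points left of 0 number 4, 6 and 22 in the panels from left to right, and those right of 0 number 0, 1 and 3.

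The 6 Mcm genes encode the ring of the replicative helicase. By day 7, 5 of 6 (83.3%) had fallen against day 0, all except Mcm3, beside 29.3% of all genes tested. The largest changes were in Mcm2 and Mcm7. Mcm2 had 69.8 and 107 RPKM at day 0, then 7.60 and 12.2 at day 4, and 4.02 and 3.77 at day 7. The day 0 libraries were the highest, the day 7 libraries the lowest, and no groups overlapped. Mcm2 fell by 3.04 ± 0.42 (log2, SE) at day 4 against day 0 (limma adjusted p = 0.012) and by 4.16 ± 0.42 at day 7 against day 0 (limma adjusted p = 0.000741). Mcm7 had 63.3 and 68.8 RPKM at day 0, then 9.17 and 32.9 at day 4, and 4.08 and 2.13 at day 7. The day 4 libraries stood well apart from each other, yet between the other groups. Mcm7 fell by 2.22 ± 0.58 at day 7 against day 4 (limma adjusted p = 0.0429) and by 4.07 ± 0.58 at day 7 against day 0 (limma adjusted p = 0.00305). Mcm7 overlaps Ap4m1 and Cops6 on the other strand, and how strand was handled is not given in the sources used here.

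Mcm4, Mcm5 and Mcm6 fell by 2.01, 2.36 and 1.74 at day 7 against day 0 (limma adjusted p of 0.019, 0.00908 and 0.0141). Mcm5 had 54.6 and 40.6 RPKM at day 0, then 16.6 and 28.4 at day 4, and 5.96 and 11.6 at day 7. Its groups followed the order of days without overlap. Mcm3 had 44.01 and 48.3 RPKM at day 0, then 10.1 and 39.3 at day 4, and 11.2 and 17.1 at day 7, so that the day 7 values lay between those of the day 4 libraries. Its log2 fold change at day 7 against day 0 was -1.66 ± 0.59 (limma adjusted p = 0.0527), just outside the threshold. Leaving out 1 library ended the Mcm2 call at day 4 (limma adjusted p = 0.0737 without day 4 library I and 0.124 without II) and the Mcm7 call at day 7 against day 4 (0.0977 and 0.123, and 0.0879 and 0.249 without day 7 library III or IV). For day 7 against day 0, Mcm2 and Mcm7 kept their calls in all such fits. The Mcm4 call was lost without day 0 library III (0.0513), day 4 library I (0.05) or day 7 library III (0.057) or IV (0.144). That of Mcm5 was lost without day 7 library III (0.0771), and that of Mcm6 without day 7 library III (0.127) or IV (0.0658).

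The balance of the helicase subunits differed between libraries. The highest subunit over the lowest was 2.70 and 2.64 at day 0, then 2.19 and 3.21 at day 4, and 2.79 and 8.04 at day 7. Mcm2 was the highest subunit in both day 0 libraries and the lowest in both day 4 libraries and in day 7 library III. In day 7 library IV Mcm7 was the lowest, on 56 reads. The Mcm genes took 0.1004% and 0.119% of reads at day 0, then 0.0256% and 0.0518% at day 4, and 0.0161% and 0.0201% at day 7.

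Among the origin licensing genes, Orc1 and Cdc6 fell, while the other members that load the helicase, Orc6 and Cdt1, and the licensing inhibitor Gmnn were called in no comparison. These falls were 40% of the 5 genes at day 7 against day 0, beside 29.3% of all genes tested. Orc1, a subunit of the complex that marks origins, had 16.2 and 23.4 RPKM at day 0, then 7.87 and 3.03 at day 4, and 0.247 and 0 at day 7. Day 7 was lowest and rested on 13 and 0 reads, against 35 and 38 reads at day 4. Orc1 fell by 2.42 ± 0.56 at day 7 against day 4 (limma adjusted p = 0.0279) and fell by 4.195 ± 0.56 at day 7 against day 0 (limma adjusted p = 0.00235). Pooled and scaled by depth, its reads were 126-fold lower at day 7 than at day 0 (exact interval 63.4 to 264). Cdc6, the ATPase that works with ORC, had 14.6 and 27.3 RPKM at day 0, then 4.73 and 7.01 at day 4, and 1.12 and 0.0357 at day 7. Day 7 lay below the other days, with 92 and 2 reads in its libraries, which were far apart. Cdc6 fell by 2.19 ± 0.57 at day 7 against day 4 (limma adjusted p = 0.0409) and by 3.82 ± 0.57 at day 7 against day 0 (limma adjusted p = 0.00351). Both genes kept the call at day 7 against day 0 without any 1 library. Against day 4 both lost it without a day 4 library (limma adjusted p of 0.0557 to 0.139 for Orc1 and 0.153 to 0.201 for Cdc6) or a day 7 library (0.112 to 0.185 and 0.0797 to 0.311).

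The other licensing genes gave no call. Cdt1, which brings MCM2-7 to origins, had 11.6 and 9.24 RPKM at day 0, then 6.56 and 10.6 at day 4, and 7.72 and 12.5 at day 7, and all groups overlapped. Gmnn encodes geminin, which binds CDT1 and blocks new licensing, and had 29.6 and 5.05 RPKM at day 0 (12 and 1 reads), then 13.4 and 11.6 at day 4, and 30.8 and 26.4 at day 7. Its day 7 libraries lay above those of day 4, with a log2 fold change of 1.13 ± 0.68 that did not pass (limma adjusted p = 0.284). Orc6 had 13.1 and 11.5 RPKM at day 0, then 10.6 and 10.2 at day 4, and 9.81 and 6.40 at day 7, with a log2 fold change of -0.57 ± 0.41 at day 7 against day 0 (limma adjusted p = 0.274). The ratio of Gmnn to Cdt1 in RPKM was 2.55 and 0.547 at day 0, then 2.05 and 1.09 at day 4, and 3.99 and 2.12 at day 7.

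Within the helicase activation genes, Cdc45 and Gins4 moved in opposite directions. Cdc45 had 15.9 and 14.8 RPKM at day 0, then 14.4 and 20.1 at day 4, and 1.42 and 0.170 at day 7. Days 0 and 4 overlapped, and both day 7 libraries were far below them, on 49 and 4 reads. Cdc45 fell by 3.42 ± 0.50 at day 7 against day 4 (limma adjusted p = 0.00423) and by 3.28 ± 0.50 at day 7 against day 0 (limma adjusted p = 0.00385). The call against day 4 was lost without day 4 library I (limma adjusted p = 0.107) or II (0.0638), and the call against day 0 was kept in every such fit. Cdc45 overlaps Ufd1 on the other strand.

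Gins4, a subunit of the GINS complex, had 6.81 and 4.65 RPKM at day 0, then 8.05 and 10.8 at day 4, and 26.8 and 25.8 at day 7. The groups did not overlap, and day 7 was the highest. The day 0 values rested on 3 and 1 reads, and both lay under the receptor level there. Gins4 rose by 2.04 ± 0.40 at day 7 against day 0 (limma adjusted p = 0.00969), and pooled reads scaled by depth gave a ratio of 4.33 (exact interval 1.69 to 15.9). Against day 4 the log2 fold change was 1.40 ± 0.40 (limma adjusted p = 0.057), with a pooled ratio of 2.61 (2.06 to 3.37). The call was lost without day 7 library III (limma adjusted p = 0.0876) or IV (0.0917).

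The other GINS subunits passed no test. Gins2 had 8.95 and 12.2 RPKM at day 0 (3 and 2 reads), then 3.53 and 3.25 at day 4, and 16.5 and 5.98 at day 7. Gins3 had 3.85 and 10.51 RPKM at day 0, then 7.59 and 4.30 at day 4, and 1.39 and 3.52 at day 7. Gins1 had 9.71 and 0 RPKM at day 0, then 4.59 and 1.22 at day 4, and 2.91 and 2.58 at day 7, and a count of 0 in day 0 library III was not informative at that depth. The 4 subunits form a complex with 1 copy of each, yet Gins4 was 19.4 and 10.0 times the lowest subunit at day 7, against 2.28 and 8.89 for the highest over the lowest at day 4. Mcm10, which helps to start the helicase, had 7.70 and 13.8 RPKM at day 0, then 3.64 and 2.78 at day 4, and 1.05 and 2.27 at day 7. It fell by 2.13 ± 0.54 at day 7 against day 0 (limma adjusted p = 0.0203), but 1 of its day 0 values lay under the receptor level. Its log2 fold change was 0.0087 after that level was subtracted, and its call was lost without day 0 library III (limma adjusted p = 0.0695) or day 7 library III (0.161) or IV (0.106).

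**Figure D3:**
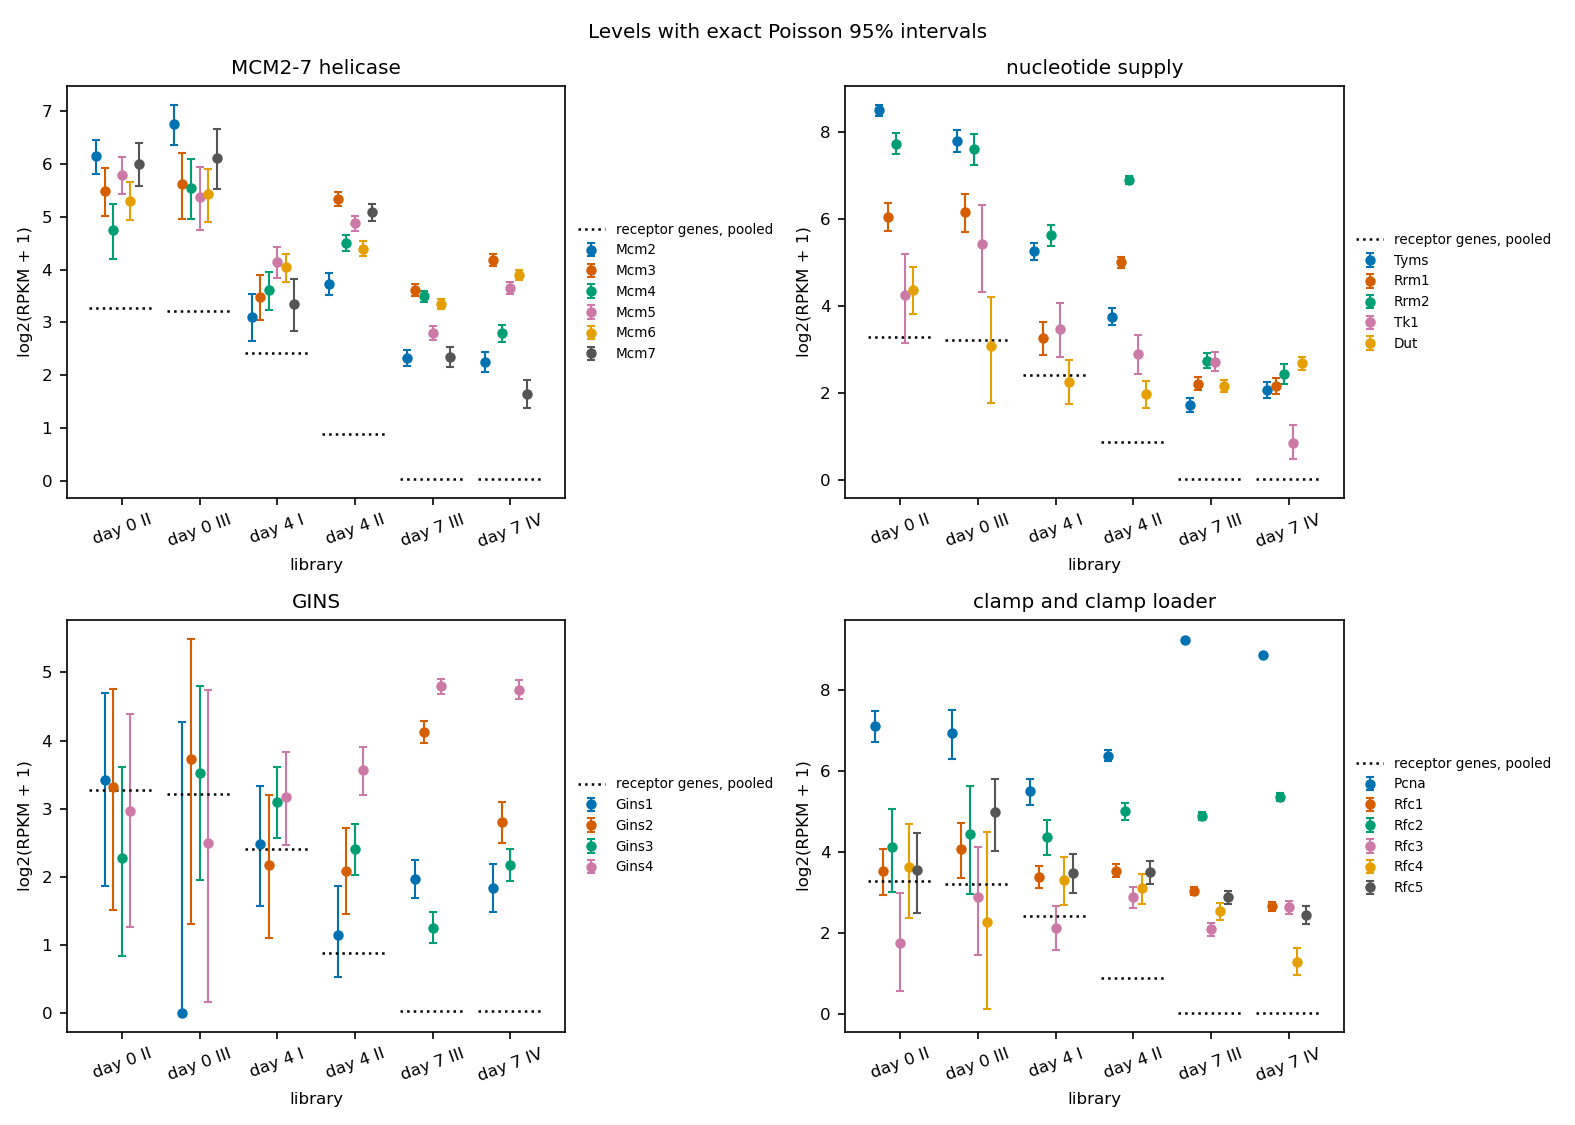
Levels of helicase, nucleotide supply, GINS, clamp and clamp loader genes as log2(RPKM + 1) by library, with bars for exact Poisson 95% intervals and a dotted line for the pooled receptor level of that library. All 6 Mcm genes lie above the line in every library, while the GINS genes at day 0 lie around it and Pcna at day 7 lies far above it.

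Of the 7 polymerase and primase genes, Pola1, Pole and Prim2 (42.9%) fell at day 7 against day 0, beside 29.3% of all genes tested. Pold2 (14.3%) fell at day 4 against day 0, beside 1.92% of all genes, and none of the 7 rose in any comparison. Pole encodes the catalytic subunit of polymerase epsilon, which copies the leading strand. It had 6.79 and 10.1 RPKM at day 0, then 4.67 and 2.22 at day 4, and 0.0740 and 0.0818 at day 7, on 12 and 9 reads over its 10043 bases. Its groups followed the order of days without overlap, and the fall at day 7 against day 0 was 3.11 ± 0.57 (limma adjusted p = 0.00794). 1 of the day 0 values lay under the receptor level, and with that level subtracted the log2 fold change was -0.67 (limma adjusted p = 0.37). Pola1, the catalytic subunit of polymerase alpha, had 5.09 and 9.72 RPKM at day 0, then 1.68 and 1.28 at day 4, and 0.583 and 0.0700 at day 7. It too followed the order of days without overlap, and it fell by 2.63 ± 0.60 at day 7 against day 0 (limma adjusted p = 0.0155), with 1 of 2 day 0 values under the receptor level.

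Prim2, the large primase subunit, had 11.996 and 5.26 RPKM at day 0, then 6.48 and 3.66 at day 4, and 2.88 and 0.455 at day 7. Days 0 and 4 overlapped and day 7 was lowest, with a fall of 1.93 ± 0.66 at day 7 against day 0 (limma adjusted p = 0.0479). With the receptor level subtracted its log2 fold change was 0.18. Pold2, the second subunit of polymerase delta, had 11.5 and 15.7 RPKM at day 0 (6 and 4 reads), then 2.27 and 2.26 at day 4 (5 and 14 reads), and 6.69 and 3.06 at day 7. Day 4 was the lowest group, and Pold2 fell by 2.15 ± 0.50 at day 4 against day 0 (limma adjusted p = 0.0478). Pola2, Prim1 and Pold1 were called in no comparison, and Pold1 and Pola2 came nearest, at -1.40 ± 0.52 and -1.28 ± 0.46 at day 7 against day 0 (limma adjusted p of 0.0602 and 0.0555). Without day 7 library III or IV the calls of Pole (limma adjusted p of 0.065 and 0.0732), Pola1 (0.096 and 0.156) and Prim2 (0.0924 and 0.326) were lost. Prim2 was also lost without day 0 library II (0.164) or day 4 library I or II (0.128 each). Pold2 was lost without day 0 library III (0.105) and without either library of day 4 (0.106 and 0.225) or of day 7 (0.108 and 0.095).

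Pcna, the sliding clamp that holds polymerases on DNA, rose at day 7 to the highest level of any member, a course that was known when the group was drawn up and so is no independent support for it. It had 138 and 121 RPKM at day 0, then 44.2 and 82.4 at day 4, and 603 and 462 at day 7, on 12267 and 6380 reads. Day 7 was far above the other days, day 4 was below day 0, and no groups overlapped. Pcna rose by 3.11 ± 0.46 at day 7 against day 4 (limma adjusted p = 0.00462) and by 2.03 ± 0.46 at day 7 against day 0 (limma adjusted p = 0.0156). At day 4 against day 0 its log2 fold change was -1.08 ± 0.46 (limma adjusted p = 0.19). Pooled reads scaled by depth were 7.54-fold higher at day 7 than at day 4 (exact interval 6.89 to 8.28) and 4.13-fold higher at day 7 than at day 0 (3.32 to 5.22).

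The rise against day 4 was lost without day 4 library I (limma adjusted p = 0.0928) or II (0.0554), and the rise against day 0 without day 7 library III (0.125) or IV (0.0944). With quantile normalization the change against day 0 was 0.33 (limma adjusted p = 0.642). Mouse annotation (GENCODE M21) lists the processed copies Pcna-ps1 and Pcna-ps2, whose reads were not separated from those of Pcna here. Among the members Pcna had rank 3 in both day 0 libraries, rank 2 in both day 4 libraries and rank 1 in both day 7 libraries. Tyms led at day 0 and Rrm2 at day 4.

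With Pcna set apart, the remaining members took a smaller share of reads at each later day. The other 44 members together took 0.451% and 0.459% of reads at day 0, then 0.133% and 0.183% at day 4, and 0.0765% and 0.0810% at day 7. Exact Clopper-Pearson intervals of the 3 days did not overlap. Pcna took 0.0173% and 0.0152% at day 0, then 0.00557% and 0.0104% at day 4, and 0.0760% and 0.0583% at day 7. Of the reads of all 45 members, Pcna held 3.71% and 3.21% at day 0, then 4.01% and 5.37% at day 4, and 49.8% and 41.8% at day 7. Its RPKM was 2.79 and 2.56 times the median Mcm gene at day 0, 4.13 and 3.29 times at day 4, and 79.3 and 52.9 times at day 7.

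**Figure D4:**
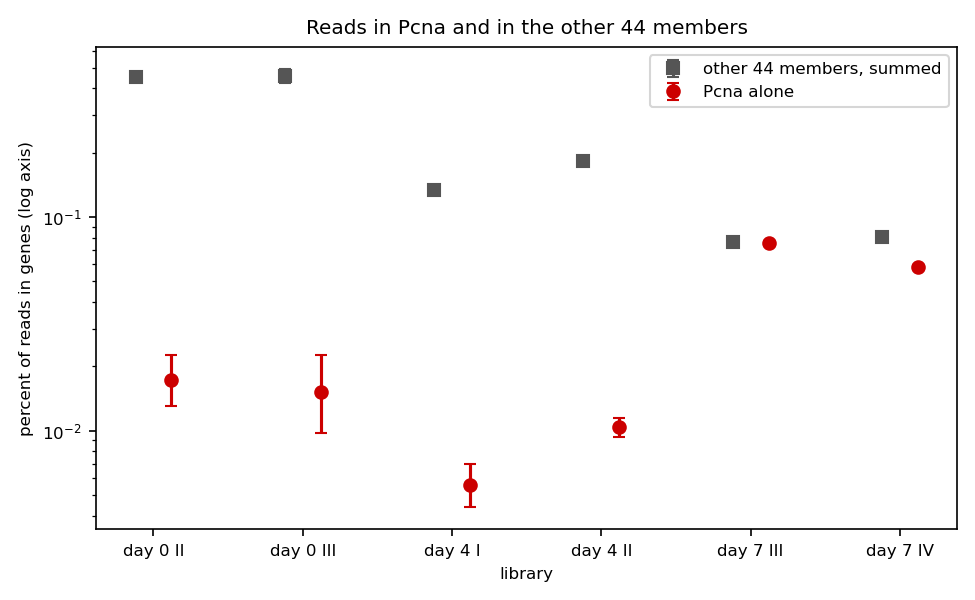
Percent of reads in genes, on a log axis, for Pcna alone (circles) and for the other 44 members summed (squares) in each library, with exact Clopper-Pearson 95% intervals. At day 7 Pcna alone holds 0.0583% to 0.0760% of reads, close to the 0.0765% to 0.0810% of the other 44 members.

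No gene of the clamp loader rose. Rfc1 to Rfc4 were called in no comparison, and Rfc5 fell by 1.61 ± 0.53 at day 7 against day 0 (limma adjusted p = 0.0411). Rfc2 was the highest loader subunit in 5 of 6 libraries. It had 16.3 and 20.9 RPKM at day 0, then 19.8 and 31.1 at day 4, and 28.6 and 40.0 at day 7, and day 7 lay above day 0 with a log2 fold change of 0.84 ± 0.40 (limma adjusted p = 0.124). Rfc5 had 10.8 and 30.5 RPKM at day 0, then 10.3 and 10.3 at day 4, and 6.37 and 4.44 at day 7. Its day 7 libraries were the lowest, and its call was kept only without day 0 library II among the fits that left 1 library out (limma adjusted p = 0.00758, against 0.13 to 0.223 in the others). Rfc4 at day 0 rested on 6 and 1 reads and overlaps Eif4a2 on the other strand, and the log2 fold change of Rfc4 at day 7 against day 4 was -1.29 ± 0.63 (limma adjusted p = 0.209). The highest loader subunit was 6.87 and 7.89 times the lowest at day 0, 5.87 and 4.89 times at day 4, and 8.76 and 27.6 times at day 7.

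In the RPA trimer, Rpa3 rose at day 7 against day 0 and the other two subunits were not called. Rpa3, the small subunit, had 14.6 and 19.9 RPKM at day 0 (3 and 2 reads), then 37.9 and 13.8 at day 4, and 45.8 and 50.8 at day 7. Day 7 was the highest group and days 0 and 4 overlapped. Rpa3 rose by 1.45 ± 0.50 at day 7 against day 0 (limma adjusted p = 0.0473), with a pooled ratio of 2.93 (exact interval 1.25 to 9.06). Rpa1, the large subunit that binds DNA, had 26.9 and 61.2 RPKM at day 0, then 9.43 and 26.9 at day 4, and 8.57 and 19.1 at day 7, with a log2 fold change of -1.59 ± 0.63 at day 7 against day 0 (limma adjusted p = 0.0722). For Rpa2 that value was -1.06 ± 0.51 (limma adjusted p = 0.128). The Rpa3 call was lost without day 0 library II (limma adjusted p = 0.0951) or III (0.0531) and without day 7 library III (0.164) or IV (0.21).

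Both genes of Okazaki fragment joining fell at day 7 against day 0, beside 29.3% of all genes tested. Fen1, the flap nuclease, had 39.1 and 29.3 RPKM at day 0, then 11.4 and 20.2 at day 4, and 10.98 and 4.22 at day 7, and fell by 2.14 ± 0.51 (limma adjusted p = 0.0175). Lig1, the DNA ligase of the lagging strand, had 13.9 and 30.2 RPKM at day 0, then 3.08 and 9.76 at day 4, and 2.87 and 2.51 at day 7, and fell by 2.55 ± 0.60 (limma adjusted p = 0.0166). For both genes the groups did not overlap and followed the order of days. Fen1 overlaps Tmem258 and Lig1 overlaps Zswim9 on the other strand. The Fen1 call was lost without day 4 library I (limma adjusted p = 0.0581) or II (0.0577) or day 7 library IV (0.146), and the Lig1 call without day 0 library III (0.0551) or day 7 library III (0.0781) or IV (0.099).

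Of the CAF-1 subunits, Chaf1a had 7.06 and 5.78 RPKM at day 0, then 4.45 and 6.19 at day 4, and 1.03 and 0.416 at day 7. The day 7 libraries were the lowest, and Chaf1a fell by 2.12 ± 0.52 at day 7 against day 0 (limma adjusted p = 0.0191). Both of its day 0 values lay under the receptor level, and with that level subtracted its log2 fold change was 0.74 (limma adjusted p = 0.487). The call was lost without day 7 library III (limma adjusted p = 0.104) or IV (0.172). Chaf1b had 6.06 and 7.75 RPKM at day 0, then 3.40 and 0.698 at day 4, and 2.36 and 2.77 at day 7, with a log2 fold change of -1.14 ± 0.61 at day 7 against day 0 (limma adjusted p = 0.16).

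Tyms and Rrm2 of the nucleotide supply genes had the largest falls among the 45 members on the log2(RPKM + 1) scale, while by the ratio of day means Orc1 and Pole, on few reads at day 7, exceeded both. By day 7, 4 of 5 (80%) had fallen against day 0, beside 29.3% of all genes tested. The exception was Dut, which encodes the enzyme that removes dUTP. Tyms, thymidylate synthase, had 357 and 220.1 RPKM at day 0, then 37.1 and 12.5 at day 4, and 2.31 and 3.22 at day 7. No groups overlapped, and each day was far below the one before. Tyms fell by 2.60 ± 0.54 at day 7 against day 4 (limma adjusted p = 0.0177) and fell by 6.24 ± 0.54 at day 7 against day 0 (limma adjusted p = 0.00043). At day 4 against day 0 it fell by 3.63 ± 0.54 (limma adjusted p = 0.0139). The table also lists Tyms-ps, a processed copy, at 315 and 174 RPKM at day 0, then 29.4 and 5.20 at day 4, and 1.47 and 1.42 at day 7, so how reads were split between the copies is uncertain. The Tyms call at day 4 was lost without day 4 library I (limma adjusted p = 0.0737) or II (0.151), and that at day 7 against day 4 without either library of day 4 (0.163 and 0.0557) or of day 7 (0.0973 and 0.0703).

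Rrm1 and Rrm2 encode the large and small subunits of ribonucleotide reductase, the enzyme that makes deoxynucleotides. Rrm2 had 210.3 and 192 RPKM at day 0, then 48.4 and 117 at day 4, and 5.71 and 4.44 at day 7. Its groups did not overlap, and the day 7 libraries were far below the others. Rrm2 fell by 3.66 ± 0.47 at day 7 against day 4 (limma adjusted p = 0.0024) and by 5.06 ± 0.47 at day 7 against day 0 (limma adjusted p = 0.000571). At day 4 against day 0 its log2 fold change was -1.40 ± 0.47 (limma adjusted p = 0.118). Rrm1 had 65.1 and 69.8 RPKM at day 0, then 8.61 and 30.9 at day 4, and 3.66 and 3.495 at day 7, also without overlap. It fell by 3.90 ± 0.55 at day 7 against day 0 (limma adjusted p = 0.00293), while the 2 steps at day 4 against day 0 and day 7 against day 4 were -1.97 and -1.94 (limma adjusted p of 0.0777 and 0.0569). Rrm2 over Rrm1 in RPKM was 3.23 and 2.75 at day 0, then 5.62 and 3.79 at day 4, and 1.56 and 1.27 at day 7, so the ratio was lowest at day 7. The Rrm2 call against day 4 was lost without day 4 library I (limma adjusted p = 0.0761) or II (0.0554), while the calls of Tyms, Rrm1 and Rrm2 at day 7 against day 0 were kept without any 1 library.

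Tk1, thymidine kinase, had 18.1 and 41.7 RPKM at day 0, then 10.2 and 6.45 at day 4, and 5.61 and 0.800 at day 7. The groups did not overlap, and Tk1 fell by 3.05 ± 0.68 at day 7 against day 0 (limma adjusted p = 0.0148). It rested on 8 and 9 reads at day 0, overlaps Afmid on the other strand, and lost its call without day 4 library I (limma adjusted p = 0.0781) or II (0.0778) or day 7 library IV (0.101). Dut had 19.7 and 7.46 RPKM at day 0, then 3.79 and 2.93 at day 4, and 3.47 and 5.44 at day 7. Days 4 and 7 overlapped, and the log2 fold change at day 7 against day 0 was -1.30 ± 0.55 (limma adjusted p = 0.0892). Together the 5 genes took 0.226% and 0.167% of reads at day 0, then 0.0319% and 0.0451% at day 4, and 0.00587% and 0.00607% at day 7.

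Both cyclin E genes, whose products with CDK2 drive entry into S phase, fell at day 7 against day 0, beside 29.3% of all genes tested. Ccne1 had 30.1 and 29.2 RPKM at day 0, then 6.36 and 3.32 at day 4, and 4.31 and 9.20 at day 7. Day 0 was highest and days 4 and 7 overlapped. Ccne1 fell by 2.44 ± 0.49 at day 4 against day 0 (limma adjusted p = 0.0303) and by 2.06 ± 0.49 at day 7 against day 0 (limma adjusted p = 0.017). Ccne2 had 5.61 and 19.1 RPKM at day 0, then 4.42 and 5.88 at day 4, and 0.542 and 0.165 at day 7. Here days 0 and 4 overlapped and day 7 was lowest, with a fall of 3.11 ± 0.64 at day 7 against day 0 (limma adjusted p = 0.0112). Its log2 fold change was -2.19 ± 0.64 at day 7 against day 4 (limma adjusted p = 0.0606). The day 0 value of 5.61 RPKM lay under the receptor level. Over the alternative settings the log2 fold change of Ccne2 at day 7 against day 0 ranged from -4.67 to -1.39 (limma adjusted p of up to 0.442). Ccne2 overlaps Ints8 on the other strand.

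E2f1, the transcription factor, had 13.2 and 27.1 RPKM at day 0, then 6.25 and 6.46 at day 4, and 15.9 and 17.9 at day 7. It was lowest at day 4 and passed no test, with log2 fold changes of -1.44 ± 0.44 at day 4 against day 0 and 1.28 ± 0.44 at day 7 against day 4 (limma adjusted p of 0.0948 and 0.0984). The Ccne1 call at day 4 was lost without day 4 library I (limma adjusted p = 0.0809) or II (0.22). The day 7 against day 0 calls of Ccne1 (limma adjusted p of 0.139 and 0.0515) and Ccne2 (0.0529 and 0.0844) were lost without day 7 library III or IV.

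By the day of the highest mean RPKM, 34 members were highest at day 0, 5 at day 4 (Cdc45, Pola2, Prim1, Rfc3 and Rfc4) and 6 at day 7 (Gmnn, Gins2, Gins4, Pcna, Rfc2 and Rpa3). The highest day was not counted over all genes, and the table as a whole also leaned to day 0. At day 7 against day 0, 13841 of 19279 genes and 38 of 45 members had a log2 fold change below 0. The ratio of the highest to the lowest day mean was under 1.25 for Cdt1 and Rfc3, at 1.21 and 1.15, and over 100 for Orc1, Pole and Tyms, at 160, 108 and 104. Of the 8 members with E2F letters in the promoter, 6 were called lower and 0 higher at day 7 against day 0. Of the 28 members whose promoter held none, 12 were called lower and 2 higher. Of all genes tested, 29.3% were lower and 11.3% higher, and no test was made of this split.

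Genes that work beside the members at the fork gave more falls than rises at day 7, as did the table as a whole. Of 34 other fork and origin genes, 17 (50%) fell and 2 (5.88%) rose at day 7 against day 0, beside 29.3% and 11.3% of all genes tested. In this list 5 (14.7%) fell and 0 rose at day 7 against day 4, beside 6.75% and 5.85% of all genes. At day 4 against day 0, 1 (2.94%) fell and 0 rose, beside 1.92% and 3.66% of all genes. At unadjusted p under 0.05, 4 genes of the list were higher at day 7 against day 4, beside 2110 of all 19279 genes. For day 4 against day 0 these counts were 2 and 2161. Uhrf1, which brings DNA methylation to new DNA, had 68.6 and 77.6 RPKM at day 0, then 14.7 and 17.2 at day 4, and 3.28 and 4.16 at day 7, and fell in each comparison, by 3.98 ± 0.36 at day 7 against day 0 (limma adjusted p = 0.000559). Pold4, the small subunit of polymerase delta, went the other way, with 6.03 and 0 RPKM at day 0 (2 and 0 reads), then 32.1 and 19.2 at day 4, and 83.7 and 110.1 at day 7. It rose by 5.19 ± 0.80 at day 7 against day 0 (limma adjusted p = 0.00414).

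The wider nucleotide pathway had shares of calls at day 7 against day 0 near those of all genes tested. Of 37 such genes, 11 (29.7%) fell and 4 (10.8%) rose at day 7 against day 0, beside 29.3% and 11.3% of all genes. In this list 1 (2.70%) fell and 3 (8.11%) rose at day 7 against day 4, beside 6.75% and 5.85% of all genes. At day 4 against day 0, 4 (10.8%) fell and 0 rose (2 higher at unadjusted p under 0.05), beside 1.92% and 3.66% of all genes. Of all 19279 genes, 2161 were higher there at unadjusted p. Adsl, an enzyme of purine synthesis, had 12.5 and 14.2 RPKM at day 4, against 77.8 and 63.1 at day 0, and fell by 2.31 ± 0.36 (limma adjusted p = 0.0165). Nme2, a nucleoside diphosphate kinase, had 330.3 and 431 RPKM at day 7, against 15.4 and 16.6 at day 4, and rose by 4.48 ± 0.46 (limma adjusted p = 0.000917), though reads of Nme2 and its close relative Nme1 may be shared.

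Of 34 genes whose proteins bind or modify PCNA outside the fork, 16 (47.1%) fell and 3 (8.82%) rose at day 7 against day 0, beside 29.3% and 11.3% of all genes tested. At day 7 against day 4, 8 (23.5%) fell and 1 (2.94%) rose, beside 6.75% and 5.85% of all genes. At day 4 against day 0, 0 fell (7 lower at unadjusted p under 0.05) and 1 (2.94%) rose, beside 1.92% and 3.66% of all genes. Of all 19279 genes, 2735 were lower there at unadjusted p. Cdkn1a, whose product p21 binds PCNA and inhibits cyclin-dependent kinases, had 1.17 and 7.16 RPKM at day 0 (1 and 3 reads), then 15.7 and 19.9 at day 4, and 167 and 171 at day 7. It rose by 3.18 ± 0.59 at day 7 against day 4 (limma adjusted p = 0.0116). Dnmt1 and Msh6, which hold PCNA-binding motifs and serve DNA methylation and mismatch repair, fell by 2.996 ± 0.49 and 3.09 ± 0.47 in the same comparison (limma adjusted p of 0.00721 and 0.00525). Gadd45b had 66.1 and 70.0 RPKM at day 7, against 4.89 and 15.0 at day 0 (2 and 3 reads), and rose by 2.83 ± 0.52 (limma adjusted p = 0.00797).

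Of 33 tested E2F, RB, cyclin and kinase genes, 16 (48.5%) fell and 1 (3.03%) rose at day 7 against day 0, beside 29.3% and 11.3% of all genes tested. Against day 4, 9 (27.3%) fell and 2 (6.06%) rose at day 7, beside 6.75% and 5.85% of all genes. At day 4 against day 0, 2 (6.06%) fell and 0 rose (2 higher at unadjusted p under 0.05), beside 1.92% and 3.66% of all genes. Of all 19279 genes, 2161 were higher there at unadjusted p. E2f2 had 2.72 and 3.18 RPKM at day 7, against 31.4 and 44.4 at day 4, and fell by 3.28 ± 0.39 (limma adjusted p = 0.0018), whereas Cdkn1c, which encodes the kinase inhibitor p57, had 39.5 and 25.5 RPKM at day 7, against 0.455 and 1.29 at day 4, and rose by 4.17 ± 0.59 (limma adjusted p = 0.00367). Of 20 mitosis genes, 19 (95%) fell at day 7 against day 0, beside 29.3% of all genes. Against day 4, 17 (85%) fell at day 7, beside 6.75% of all genes. At day 4 against day 0, 1 (5%) fell, beside 1.92% of all genes. Of these mitosis genes 0 rose in any comparison, also at unadjusted p under 0.05. Mki67, the proliferation antigen, had 56.9 and 162 RPKM at day 0, then 18.8 and 44.9 at day 4, and 1.21 and 1.90 at day 7. The medians of the mitosis list were -2.53 at day 7 against day 4 and -0.54 at day 4 against day 0, beside -0.85 and -1.09 for the 45 members, and the lists were not tested against each other.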

How the data were processed

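Total RNA from bulk marrow cells was isolated with Qiagen RNeasy columns and made into libraries with the SMARTer v3 Ultra Low Input kit and NexteraXT, per the labels' protocols. The authors deposited RPKM values for 21761 genes with Entrez IDs, symbols and exon lengths, per the file headers. The submitters' processing notes name TopHat2 2.0.13, SAMtools 1.1 and the genome build mm9. The sources used here do not give their roles, the counter, the annotation or the handling of strand. Multiplied by length and divided by the value of 1 read, every RPKM came out whole to within 5.41e-05 reads, which gave whole reads for each gene and the total of each library.

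Genes with at least 1 RPKM in at least 2 of 6 libraries were tested (19279). Limma 3.58.1 in R 4.3.3 fitted 3 day means to log2(RPKM + 1) of all 6 libraries (lmFit, contrasts.fit and eBayes with a trend), with 3 residual degrees of freedom and 5.22 prior ones. Fold changes on this scale understate those of low genes. Tests were two-sided, adjusted by Benjamini-Hochberg over all genes tested, and called at adjusted p under 0.05. Each SE draws on the spread within all 3 days, with 2 libraries per day, and on the prior. The fit was tested on simulated data. A floor of 3 reads of a 1 kb gene was 9.29 to 19.0 RPKM at day 0, 0.779 to 2.20 at day 4 and 0.186 to 0.274 at day 7. Pooled ratios divide summed reads by summed totals, with exact conditional binomial intervals. Alternatives varied the pseudocount, filter, scaling, receptor level subtraction, trend, library weights, read thinning and libraries. Overlapping genes and pseudogenes were read from GENCODE M21 by symbol, and 17 members overlap a gene on the other strand. No gene coordinates are given, because that annotation is of another build. Members, lists and tests were chosen with earlier results of these data known. All members could be named, and from each other list up to 6 genes with the smallest p in a comparison and 3 with the highest mean. The B lineage markers summed to 95.6 to 96.7 RPKM at day 0, 54.7 to 76.7 at day 4 and 10.5 to 13.1 at day 7, and the T and NK markers to 86.0 to 124 RPKM at day 0, 48.0 to 89.9 at day 4 and 1.65 to 2.13 at day 7. The CMP and stem cell list summed to 495 to 2060 RPKM at day 0, 765 to 999 at day 4 and 618 to 699 at day 7.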

Additional observations from a re-analysis of the deposited data

How the results depend on the processing

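No paired analysis was possible because the days compared share fewer than 2 replicate numbers. Of 18 alternative settings, Tyms, Rrm1, Rrm2, Mcm2, Orc1 and Cdc45 kept their calls at day 7 against day 0 in every one, and the Pcna rise kept its direction in all of them and its call in 16 against day 4 and 15 against day 0. Subtracting the receptor level reversed Prim2 (0.18), Chaf1a (0.74) and Mcm10 (0.0087) at day 7 against day 0, and Pola1 could not be fitted there because it no longer passed the filter. Of the 36 calls of single members, 22 were kept with quantile normalization, 27 with voom, 18 of 35 after receptor subtraction, 29 with no trend, 25 with library weights and 14 after thinning, and 31 to 36 with the other pseudocounts, filters, median ratio scaling and the fit of 4 libraries.

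At day 4 against day 0, members called higher numbered 2 after receptor subtraction, and members called lower numbered 2 with a pseudocount of 0.1 RPKM, 9 with quantile normalization, 1 with voom on whole reads, 2 with no mean-variance trend, 0 with library weights (where limma called 0 genes in all, 2757 at unadjusted p under 0.05) and 2 after thinning to the smallest library. At day 7 against day 4, members called higher numbered 2 with a pseudocount of 5 RPKM, 2 with a filter of 5 RPKM, 3 with median ratio scaling, 2 after receptor subtraction and 4 in a fit of the 4 libraries of those days. Genes called higher in the same order numbered 1256 of 19279, 1400 of 10481, 1452 of 19081, 1814 of 10815 and 1963 of 19279. Members called lower numbered 11 with a pseudocount of 0.1 RPKM, 3 with 5 RPKM, 11 with a filter of 5 RPKM, 2 with quantile normalization, 13 with voom, 3 after receptor subtraction and 3 after thinning. Genes called lower numbered 2846, 1037, 483 and 9982 of 19279 with pseudocounts of 0.1 and 5 RPKM, quantile normalization and voom. They numbered 1595 of 10481 with the filter, 783 of 10815 after receptor subtraction and 508 to 625 after thinning. At day 7 against day 0, 1211 of 19279 genes were called higher with quantile normalization, 4738 of 10815 after receptor subtraction and 896 to 938 after thinning. Genes called lower there numbered 930, 486 and 2682 to 2905. In the same settings members called higher numbered 1, 7 and 1, and members called lower 14, 8 and 11. Leaving out 1 library gave 0 to 5 lower at day 4 against day 0, 0 to 4 higher and 0 to 12 lower at day 7 against day 4, and 0 to 3 higher and 9 to 24 lower at day 7 against day 0. The cause of these moves was not tested.

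The share of higher among all calls at day 4 against day 0 was 65.6%, but 79.1% with a pseudocount of 0.1 RPKM, 90.5% after receptor subtraction and 26.4% to 27.0% after thinning. It was 46.4% at day 7 against day 4, but 28.8% with a pseudocount of 0.1 RPKM, 15.4% with voom, 69.8% after receptor subtraction and 35.2% to 38.6% after thinning. It was 27.9% at day 7 against day 0, but 56.6% with quantile normalization, 90.7% after receptor subtraction, 44.2% with a filter of 5 RPKM, and 54.7% and 57.0% without day 7 library III or IV. Over all genes the median log2 fold change at day 7 against day 0 was -1.14. It was -0.0065 with quantile normalization, -0.95 with median ratio scaling, -2.05 with voom and 1.68 over the 10815 genes left after receptor subtraction. That of the members was -1.61, and -1.16, -1.21, -1.01 and 0.077. Depth limits day 0 most: 5 and 9 members rested there on 3 reads or fewer.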
